A study of Harpegnathos saltator with 27 samples.

Results

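The ionotropic receptor (Ir) co-receptor genes of the jumping ant Harpegnathos saltator are HsIr8a, HsIr76b, HsIr25a.1 and HsIr25a.2. They were followed in the developing antennae of pupae, either orco mutant or WT, at 4 ages counted from puparium formation, day 10 (D10), day 15 (D15), day 20 (D20) and day 25 (D25). The genes were taken by name from the receptor annotation of the study and make up 4 of its 23 Ir genes and 4 of the 14407 genes counted. All 4 passed a minimum mean of 10 reads per library, as did 11086 genes in all. The mutants carry a mutation in orco, which encodes the obligate co-receptor of the odorant receptors (ORs), and the WT pupae do not. Neither the zygosity of these mutants nor the number of antennae in a library is given in the sources used here. There were 3 mutant libraries at each stage, against 3 WT libraries at D10 and 4 WT libraries at each of D15, D20 and D25, for a total of 27. Libraries were made from polyA RNA and are treated as replicates, and since nothing states that they came from separate groups of animals, p-values measure only the spread between these libraries.

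In insects, sensory neurons of the antenna detect odors and other cues through ORs, gustatory receptors and IRs. IRs are cation channels related to ionotropic glutamate receptors, in which a tuning subunit that sets the response is assembled with a broadly used co-receptor subunit. In Drosophila, Ir8a works mostly with tuning subunits for acids, Ir76b with tuning subunits for amines and with taste subunits, and Ir25a with many partners, including those for temperature and humidity. The ant has a single gene for each of the first 2 co-receptors and a pair of genes for Ir25a. In the deposited annotation, HsIr25a.1 and HsIr25a.2 stand in neighboring rows. The RefSeq gene table of the species, built on assembly Hsal_v8.6, lists Ir8a (gene ID 105186151) with a span of 6549 bases and Ir76b (gene ID 105188194) with a span of 8960 bases, but only 1 gene named Ir25a. The files give no transcript lengths, so levels are compared between libraries for a gene and not between genes.

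The libraries held between 3454610 and 52275933 reads on genes, with a median of 22719131. They were sequenced in 3 batches, which are uneven across genotypes. Replicates 1 to 3 of all WT stages, mutant D10 replicate 1 and mutant D20 replicate 1 were in batch 1, while batch 2 held only mutant libraries, namely replicate 1 of D15 and replicates 2 and 3 of D10. The remaining libraries, including WT replicate 4 of the later stages, were in batch 3. The shallowest libraries were mutant D10 replicates 3 and 2. The targeted gene, HsOrco, was not called at D10 or D15, where its log2 fold change, mutant over WT, was 1.12 and 1.10, and it fell by 3.42 on the log2 scale at D25 (adjusted p = 1.21e-04, edgeR quasi-likelihood test with Benjamini-Hochberg adjustment, as for every adjusted p across genes unless another test is named). Among 4 neuron markers, nSyb, which encodes a protein of synaptic vesicle fusion, was lower in mutants at D20 and D25, with log2 fold changes of −1.94 and −1.52 (adjusted p = 3.19e-05 and 1.02e-04). The other 3 (fne, Syt1 and onecut) were detected in every group and were not called at any single stage, with log2 fold changes of −1.53 to −0.53 at D20 and −1.55 to −0.13 at D25. Averaged over D20 and D25, onecut was called lower in mutants, as was nSyb. In RNA from whole antennae, fewer cells of a type and less RNA per cell cannot be told apart.

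HsIr76b was below every WT library in every mutant library at all 4 stages, and was called lower at D20 and D25. HsIr8a overlapped between genotypes at D10 and D15, lay above WT in every mutant library at D20 and D25, and was called higher at D25. HsIr25a.1 and HsIr25a.2 varied widely between libraries at D15, and neither was called at any stage. By the edgeR test, 0 of the 4 genes were called at D10 and D15, 1 at D20 and 2 at D25, where 0.198%, 0.00902%, 4.74% and 16.5% of the 11086 genes tested were called, in either direction.

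**Figure D1:**
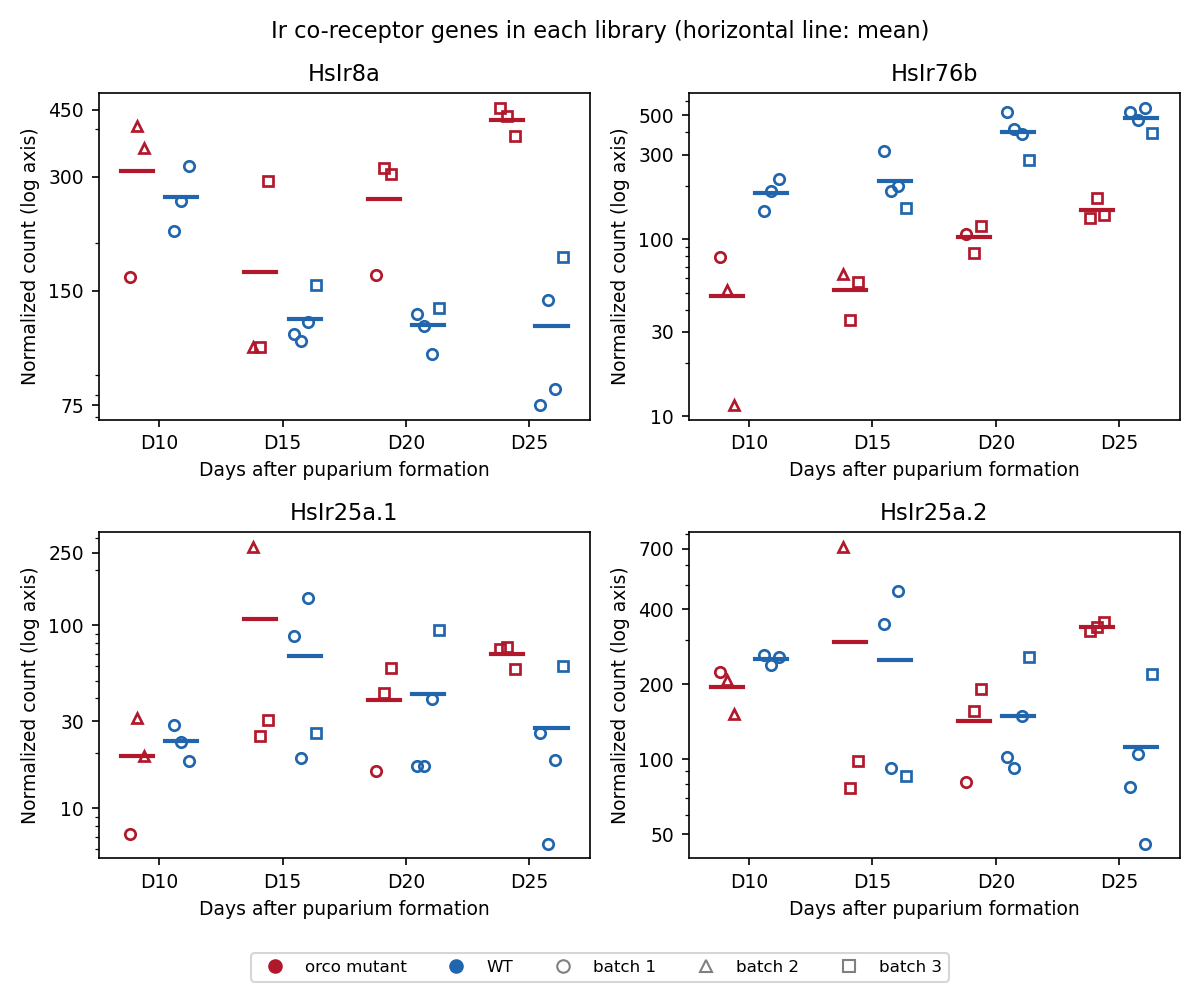
Normalized count of each Ir co-receptor gene in each library (y axis, log scale) by stage (x axis), with orco mutant libraries in red on the left and WT libraries in blue on the right of each stage, marker shapes for sequencing batches and horizontal lines for group means. For HsIr76b, every mutant library lies below every WT library of its stage, and for HsIr8a the mutant libraries lie above all WT libraries at D20 and D25.

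HsIr76b was the member with the steadiest difference between genotypes. At D10 its normalized counts (reads divided by the size factor of the library) were 79.5, 52.0 and 11.6 in mutants, against 144.0, 186.7 and 217.3 in WT, and the lowest mutant value rests on 3 reads. At D15 they were 63.4, 35.1 and 57.6 in mutants, against 315.4, 187.2, 198.5 and 149.1 in WT. Although every mutant library was below every WT library at both early stages, neither difference passed the threshold in edgeR, and both did with the DESeq2 test (adjusted p = 5.02e-04 at D10 and 1.31e-06 at D15). In edgeR the log2 fold change was −1.85 ± 0.40 (SE) at D10 (adjusted p = 0.0575) and −2.08 ± 0.38 (SE) at D15 (adjusted p = 0.0636). With batch as a term it was −1.49 at D10 (adjusted p = 0.837) and −1.57 at D15 (adjusted p = 0.351). With only the compared libraries it was −1.81 (adjusted p = 0.400) and −2.07 (adjusted p = 0.678), so the early difference was not firm across settings. At D10, 10.3% of all genes tested were lower in mutants without overlap, and at D15 4.17% were.

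The same held at the later stages, at higher levels in both genotypes. At D20, HsIr76b stood at 106.5, 83.4 and 118.5 normalized counts in mutants, against 519.6, 416.7, 392.4 and 278.7 in WT. At D25 the values were 132.3, 169.6 and 137.0 in mutants and 524.6, 471.8, 547.1 and 397.4 in WT. In 2 of the 3 mutant libraries, HsIr76b at D25 was still below the lowest WT value at D10 and at D15. HsIr76b was lower in mutants than in WT by 1.99 ± 0.38 (SE) on the log2 scale at D20 (adjusted p = 0.00171) and by 1.73 ± 0.37 (SE) at D25 (adjusted p = 0.00364). Genes lower in mutants without overlap made up 8.29% of those tested at D20 and 12.0% at D25. In group means, mutants had 103 ± 17.8 (SD, n = 3) normalized counts at D20, against 402 ± 98.9 (SD, n = 4) in WT, which is 3.91-fold higher in WT, and the WT level was 3.32-fold higher at D25.

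The size of this difference did not depend detectably on age. Averaged over D20 and D25, the log2 fold change of HsIr76b was −1.86 (95% interval −2.42 to −1.31, adjusted p = 2.56e-05), in a comparison where 17.7% of genes were called. The late difference minus the early one was 0.10 (95% interval −0.65 to 0.86, adjusted p = 0.931). HsIr76b was also lower in mutants within the batches that hold both genotypes. The difference of mean log2 values was −1.17 at D10 and −2.04 at D20 within batch 1, with 1 mutant library against 3 WT libraries. It was −1.71, −1.48 and −1.44 at D15, D20 and D25 within batch 3, where WT is a single library. With batch as a term, the call at D20 and at D25 was kept (−1.71, adjusted p = 0.00256, and −1.28, adjusted p = 0.0232).

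HsIr8a, the co-receptor used with acid-tuned subunits in Drosophila, showed no steady difference early. At D10 it had 163.4, 408.1 and 356.9 normalized counts in mutants, against 215.7, 258.8 and 320.6 in WT. At D15 it had 106.4, 106.5 and 291.5 in mutants, against 115.2, 110.6, 124.2 and 155.8 in WT. None of the 4 members was higher in mutants without overlap at these stages, as 8.05% of genes tested were at D10 and 4.33% at D15. HsIr8a overlapped between genotypes at both, and the spread between mutant libraries was wider than that between WT libraries. The log2 fold changes were 0.19 ± 0.38 (SE) and 0.39 ± 0.36 (SE), with adjusted p = 1.00 and 0.661, and both turned negative with batch as a term (−0.20 and −0.09).

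At D20, HsIr8a had 164.9, 316.4 and 304.1 normalized counts in mutants, against 130.2, 121.1, 102.1 and 135.2 in WT. The genotypes did not overlap, as was the case for 6.43% of genes tested that were higher in mutants, but mutant replicate 1, the mutant library of batch 1, lay close to WT. The log2 fold change of 1.06 ± 0.36 (SE) did not pass the threshold (adjusted p = 0.104), and it did without that library (1.29, adjusted p = 0.0478) and with the DESeq2 test (1.10, adjusted p = 0.0459). With batch as a term the difference at D20 was smaller (0.70, adjusted p = 0.305). In batch 1 alone, with 1 mutant library at D20, it was 0.47. At D25, HsIr8a had 453.5, 432.3 and 383.4 normalized counts in mutants and 75.2, 142.3, 82.7 and 184.4 in WT. Every mutant library held more than the highest WT library by a wide margin, and without overlap 14.5% of genes were higher in mutants. The log2 fold change at D25 was 1.78 (95% interval 1.03 to 2.52, adjusted p = 0.00209), and the ratio of group means was 3.49.

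The WT library closest to the mutants at D25 was replicate 4, which was sequenced in batch 3 with all 3 mutant libraries. Within that batch the difference in mean log2 values was 1.19, with a single WT library. A fit of batch 3 alone gave 1.15 (adjusted p = 0.188), and a fit without WT D25 replicates 1 and 3, of which replicate 3 had the fewest reads of its group, gave 1.37 (adjusted p = 0.0620). With batch as a term in the model of all 27 libraries, the value was 1.29 (adjusted p = 0.0216). Averaged over D20 and D25, HsIr8a was higher in mutants by 1.42 ± 0.25 (SE) on the log2 scale (adjusted p = 3.52e-04), a call that was lost in batch 3 alone (1.16, adjusted p = 0.0815). The late difference exceeded the early one by 1.13 ± 0.36 (SE), short of the threshold (adjusted p = 0.0801), where 5.43% of genes were called. It passed with the DESeq2 test (1.12, adjusted p = 0.0468) and without mutant D15 replicate 3 (1.46, adjusted p = 0.00606), mutant D20 replicate 1 (1.25, adjusted p = 0.0430) or WT D25 replicate 4 (1.27, adjusted p = 0.0338). It was smaller with library size only (0.67, adjusted p = 0.317) and without WT D25 replicates 1 and 3 (0.93, adjusted p = 0.184). With 1 library left out at a time it ranged from 0.98 to 1.46, with adjusted p up to 0.158.

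**Figure D2:**
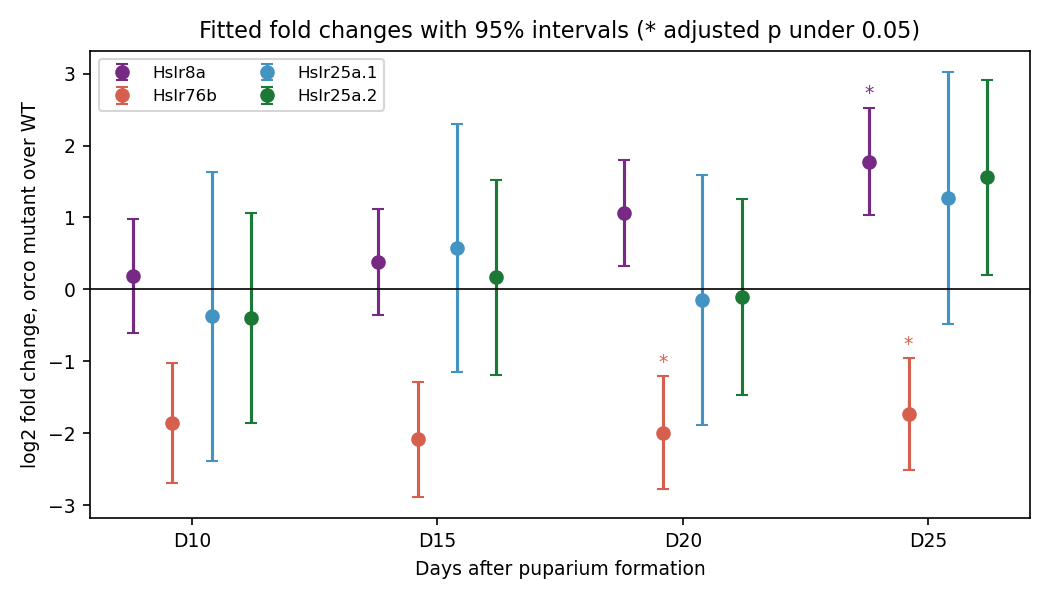
Fitted log2 fold change, orco mutant over WT (y axis), of each Ir co-receptor gene at each stage (x axis), from the edgeR model of 27 libraries. Points are estimates, bars are 95% intervals, and stars mark an adjusted p under 0.05, which HsIr76b had at D20 and D25 and HsIr8a at D25 (1.78).

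Of the markers of other cell types, only Mhc, the muscle marker, was called at D25. repo, the glial marker, had 1713, 1792 and 1752 normalized counts at D25 in mutants, against 538.4, 1196, 1057 and 1426 in WT, without overlap. The log2 fold change of repo was 0.73 at D25 (adjusted p = 0.0572) and 0.67 averaged over D20 and D25 (adjusted p = 0.0152). Over the 27 libraries, which share the normalization, Pearson's r of log2 CPM between HsIr8a and repo was 0.79, the sixth highest of all genes tested for HsIr8a. The r of the markers of muscle, epithelium, support cells and other neurons was not set beside it. The ranking depended on the libraries, since in WT libraries alone 0 of the 5 genes most like HsIr8a were shared. Mhc was higher in mutants at D25 (log2 fold change 2.71, adjusted p = 0.0253), at 16788 to 19770 normalized counts, against 298.8 to 5904 in WT. The WT libraries with the least Mhc were replicates 3 and 1, the same that had the least HsIr8a. These libraries also had the least repo and HsIr25a.2 of the WT D25 group. They held its fewest reads on genes (8324206 and 13260572), so the match was not particular to Mhc. At D20 the log2 fold change of Mhc was −0.76 (adjusted p = 0.752), at 607 to 4344 normalized counts in mutants and 2037 to 6032 in WT. At D25, nompC, the marker of mechanosensory neurons, had a log2 fold change of 1.35 (adjusted p = 0.0759) and Rh50, the marker of ammonia-sensory neurons, 1.02 (adjusted p = 0.443), both without overlap. Of all genes tested, 14.5% were higher in mutants without overlap at D25. sv, the marker of support cells, had 1.339 (adjusted p = 0.183), and grh, the epithelial marker, had −0.10 (adjusted p = 0.951), both with overlap. The part of other cell types in the difference of HsIr8a was not tested.

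HsIr25a.1 and HsIr25a.2, the pair related to the most widely used Drosophila co-receptor, spread widely at D15. At D10, HsIr25a.2 had 224.1, 208.0 and 151.3 normalized counts in mutants and 262.3, 239.6 and 258.3 in WT, while HsIr25a.1 was near its lowest, with 5 to 12 reads in the mutant libraries and 24 to 41 in the WT libraries. At D15, HsIr25a.2 had 709.6, 76.8 and 98.4 in mutants, against 348.9, 92.7, 472.5 and 85.4 in WT. The D15 values of both genotypes thus fell into a high and a low range with nothing between 98.4 and 348.9. HsIr25a.1 split the same libraries at D15, with 268.6, 24.8 and 30.2 in mutants, against 87.7, 18.7, 140.8 and 25.8 in WT. Mutant replicate 1 and WT replicates 1 and 3 were high in both genes. These 3 libraries come from batches 1 and 2, but WT replicate 2, also of batch 1, was low.

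The pair varied together across libraries. Pearson's r between their log2 CPM values was 0.70 over all 27 libraries, 0.70 over the 12 mutant libraries and 0.69 over the 15 WT libraries, and it was 0.82 for the deviations of each library from the mean of its group. Reads that map to more than 1 place were not counted, and the 2 rows lie next to each other, so any sequence they share would lower both counts, and how they divide reads was not tested. By comparison, r was 0.06 between HsIr8a and HsIr25a.1, 0.38 between HsIr8a and HsIr25a.2, −0.08 between HsIr76b and HsIr25a.1, −0.17 between HsIr76b and HsIr25a.2, and −0.49 between HsIr8a and HsIr76b. These values are descriptions over 27 libraries that share stages, genotypes and normalization.

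**Figure D3:**
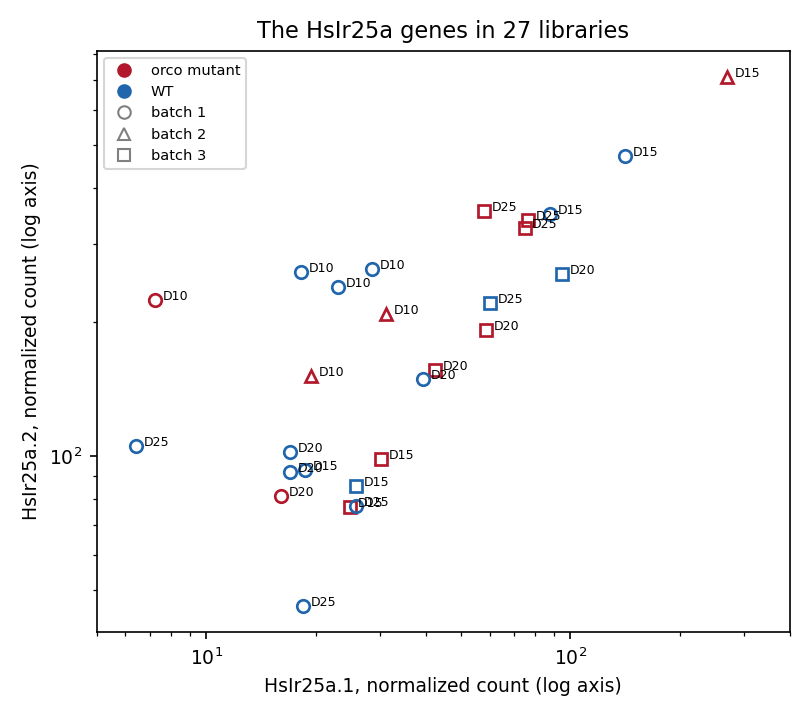
Normalized count of HsIr25a.2 (y axis, log scale) against that of HsIr25a.1 (x axis, log scale) in 27 libraries, colored by genotype, shaped by batch and labeled by stage. The points run along a common diagonal (r = 0.70), with mutant D15 replicate 1 highest in both genes and the 3 mutant D25 libraries close together.

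At D20, HsIr25a.2 had 81.3, 155.8 and 191.6 normalized counts in mutants, against 101.9, 92.1, 148.9 and 256.3 in WT, with broad overlap. At D25 it had 326.0, 339.2 and 354.8 in mutants, against 77.2, 105.1, 46.0 and 220.0 in WT, and HsIr25a.1 had 74.8, 76.5 and 57.9 in mutants, against 25.7, 6.4, 18.4 and 60.0 in WT. The mutant libraries at D25 were alike and lay above all WT libraries for HsIr25a.2, as was the case for 14.5% of all genes tested. For HsIr25a.1, mutant replicate 3 lay just below WT replicate 4. The log2 fold change at D25 was 1.56 (95% interval 0.20 to 2.92, adjusted p = 0.0988) for HsIr25a.2 and 1.27 (95% interval −0.48 to 3.02, adjusted p = 0.288) for HsIr25a.1. Neither passed the threshold, and HsIr25a.2 did without WT D25 replicate 4 (2.11, adjusted p = 0.0275). Within batch 3, where that library is the only WT one, the differences of mean log2 values were 0.62 and 0.20.

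At the earlier stages, the fitted differences of the pair were small beside their intervals. For HsIr25a.2 the log2 fold change was −0.39 at D10, 0.17 at D15 and −0.10 at D20, and for HsIr25a.1 it was −0.38, 0.58 and −0.15. Although the mutant values of HsIr25a.2 at D10 all lay below the WT values, the interval of the difference ran from −1.85 to 1.07. Of all genes tested, 10.3% were lower in mutants without overlap at D10. At D15 the direction depended on a single library, since without mutant D15 replicate 1 the log2 fold change was −1.52 for HsIr25a.2 (adjusted p = 0.503) and −1.31 for HsIr25a.1 (adjusted p = 0.674). The intervals at D15 and D20 allow a change of more than 1 on the log2 scale in either direction, so an equal level in both genotypes was not shown.

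Each co-receptor had its own course between stages. HsIr8a fell early in WT antennae, where its D10 mean was 265 ± 52.7 (SD, n = 3) normalized counts. The later WT means of HsIr8a were 126 ± 20.4 (D15), 122 ± 14.6 (D20) and 121 ± 51.7 (D25) (SD, n = 4 each). Its log2 fold change in WT was −1.11 ± 0.35 (SE) for D15 over D10 (adjusted p = 0.0241) and −1.17 ± 0.36 (SE) for D25 over D10 (adjusted p = 0.0127), in comparisons where 25.7% and 38.5% of genes were called. The D15 call was lost with library size only (−1.09, adjusted p = 0.0702) and without any 1 of WT D15 replicates 1, 2 and 3 or WT D10 replicates 2 and 3 (adjusted p = 0.0508 to 0.102). The D25 call was lost without WT D10 replicate 3 (adjusted p = 0.0582), with only the compared libraries (−1.12, adjusted p = 0.0549) and without WT D25 replicates 1 and 3 (−0.76, adjusted p = 0.150).

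In mutants, HsIr8a averaged 309 ± 129 normalized counts on D10 and 168 ± 107 on D15, and then 262 ± 84.1 on D20 and 423 ± 36.0 on D25 (SD, n = 3 each). No step passed the threshold, with −0.91 for D15 over D10 (adjusted p = 0.120), 0.61 for D20 over D15, 0.72 for D25 over D20 and 0.42 for D25 over D10 (adjusted p = 0.408). Without mutant D15 replicate 3, HsIr8a passed for D15 over D10 (−1.57, adjusted p = 0.0124) and for D20 over D15 (1.27, adjusted p = 0.0265), and with batch as a term for D15 over D10 (−1.19, adjusted p = 0.0453). Of all genes, 10.3%, 20.2%, 3.36% and 37.8% were called in these 4 mutant comparisons. The change of HsIr8a from D10 to D25 was higher in mutants than in WT by 1.59 ± 0.52 (SE) on the log2 scale, a difference of changes that did not pass the threshold (adjusted p = 0.0962), where 4.47% of genes were called. It passed without WT D25 replicate 4 (1.86, adjusted p = 0.0271). With 1 library left out at a time, this difference of changes ranged from 1.29 to 1.86, with adjusted p up to 0.223. Over the other alternatives it ranged from 0.76 to 2.43, with adjusted p up to 0.390.

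HsIr76b rose with age in both genotypes. For D25 over D10, its log2 fold change was 1.47 ± 0.40 (SE) in mutants (adjusted p = 0.00621) and 1.35 ± 0.37 (SE) in WT (adjusted p = 0.00604). In these comparisons, 17.8% of all genes were called higher in mutants and 20.7% in WT. Without batch 2, which held 2 of the 3 mutant D10 libraries, the mutant value was 0.81 and the call was lost (adjusted p = 0.171). Most of the change lay between D15 and D20, with 1.00 in mutants (adjusted p = 0.0778) and 0.91 in WT (adjusted p = 0.0815), neither past the threshold. Both passed with the DESeq2 test (adjusted p = 0.0193 in mutants and 0.0143 in WT), the mutant step also without batch 2 (1.18, adjusted p = 0.0188) and the WT step with batch as a term (0.90, adjusted p = 0.0331). Over the alternatives other than leaving out 1 library, this step went down to 0.17 in mutants and 0.10 in WT. Adjusted p reached 0.707 in mutants and 0.792 in WT. The steps for D15 over D10 were −0.06 in mutants and 0.17 in WT, and those for D25 over D20 were 0.53 and 0.27. The change of HsIr76b from D10 to D25 differed between mutants and WT by 0.12 (95% interval −0.97 to 1.21). These rises are relative to the other genes of a library. When libraries were scaled by their totals alone, the median of all genes shifted by −1.70 in mutants and −0.82 in WT for D25 over D10, and HsIr76b stood at −0.12 in mutants and 0.45 in WT. HsIr8a stood at −1.26 in mutants under that scaling (adjusted p = 0.0164).

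No change of HsIr25a.1 or HsIr25a.2 between stages passed the threshold in the model of all libraries. For D25 over D10 in mutants, HsIr25a.1 passed with batch as a term (3.08, adjusted p = 0.0158), and with only the compared libraries both HsIr25a.1 (1.93, adjusted p = 0.0190) and HsIr25a.2 (0.71, adjusted p = 0.0140) passed. In WT, HsIr25a.2 passed with library size only (−2.02, adjusted p = 0.0141), where the median of all genes was −0.82. For D15 over D10, HsIr25a.1 had log2 fold changes of 2.44 ± 0.99 (SE) in mutants (adjusted p = 0.107) and 1.48 ± 0.87 (SE) in WT (adjusted p = 0.226). For D25 over D10, HsIr25a.2 had 0.75 in mutants (adjusted p = 0.427) and −1.20 in WT (adjusted p = 0.153), and the difference of these changes was 1.95 (95% interval −0.05 to 3.95, adjusted p = 0.274). Of all genes, 11.6% were called in WT for D20 over D15 and 0.00902% for D25 over D20. The difference between genotypes in the change was called for 0 of the 4 members over any of the 4 intervals, where 0.00902% (D15 over D10), 2.58% (D20 over D15), 0.0541% (D25 over D20) and 4.47% (D25 over D10) of all genes were called. The sign of the difference between genotypes at D25 was the same for HsIr8a, HsIr25a.1 and HsIr25a.2, and opposite for HsIr76b. All comparisons of a stage share the same libraries.

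A ratio of 2 genes within a library does not depend on how the library was scaled, apart from the pseudocount. The log2 ratio of HsIr8a to HsIr76b, with a pseudocount of 1, was 1.03, 2.95 and 4.82 in mutants at D10, against 0.58, 0.47 and 0.56 in WT. At D25 it was 1.77, 1.345 and 1.48 in mutants, against −2.79, −1.72, −2.71 and −1.10 in WT. The ratio was higher in every mutant library than in every WT library at all 4 stages. At D10, D15, D20 and D25 its means were 2.93, 1.55, 1.296 and 1.53 in mutants, against 0.54, −0.70, −1.68 and −2.08 in WT.

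The difference in the ratio of HsIr8a to HsIr76b, mutant minus WT, was 2.40 and 2.25 for the 2 early stages and 2.98 and 3.61 for D20 and D25. The highest mutant ratio at D10 rests on 3 reads of HsIr76b, and the D10 difference ranged over 1.45 to 3.35 when 1 library was left out. The two-sided exact permutation test gave p = 0.1 at D10 and p = 0.0571 at each later stage, the smallest that 3 against 3 and 3 against 4 libraries allow, so no call was possible (adjusted p = 0.240 at D10 and 0.171 later, over 12 comparisons). Ratios of HsIr8a to HsIr25a.1 overlapped between genotypes at every stage, and ratios of HsIr8a to HsIr25a.2 overlapped at all stages but D20, where the difference was 1.08 (exact permutation p = 0.0571). At D25, the difference was 0.22 for the ratio to HsIr25a.1 and 0.07 for the ratio to HsIr25a.2.

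**Figure D4:**
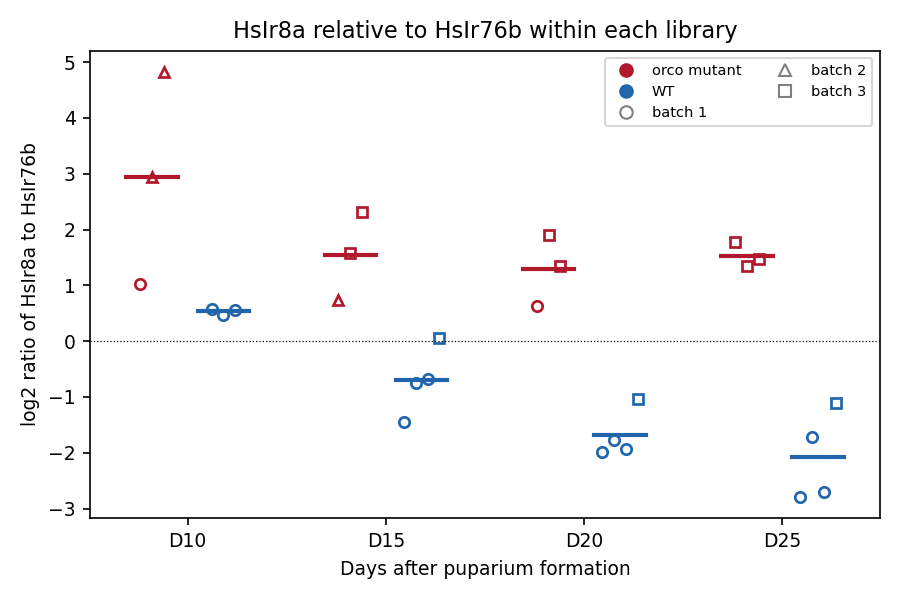
Log2 ratio of HsIr8a to HsIr76b in each library (y axis) by stage (x axis), with orco mutant libraries in red to the left of WT libraries in blue, shapes for batches and horizontal lines for means. Mutant libraries lie above WT libraries at every stage, and the WT mean is lowest at D25 (−2.08).

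The members were also set beside the 4 neuron markers of the same library, by taking the log2 value of a gene minus the mean log2 value of nSyb, fne, Syt1 and onecut. On this scale, at D25 HsIr8a stood at −1.83 to −1.52 in mutants, against −5.17 to −3.48 in WT, a difference of means of 2.59 without overlap. HsIr25a.2 differed by 2.52 and HsIr25a.1 by 2.37 at D25, also without overlap. HsIr76b differed in the opposite direction at D10 and D15, by −2.35 and −2.001, without overlap. At D20 and D25 its difference was smaller, at −0.78 and −1.02, and the genotypes overlapped. These values are descriptions with no test, and the share of all genes without overlap on this scale was not computed. The median log2 fold change of the 4 markers, mutant over WT, was −1.05 at D20 and −0.98 at D25. A fall of the markers raises every member on this scale. Since nSyb was called lower in mutants at D20 and D25, and nSyb and onecut in the average of these stages, the values do not measure expression per neuron.

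The remaining 19 Ir genes of the annotation, mostly tuning subunits, were measured in the same libraries. Of these, 15 passed the minimum count. At D10, D15 and D20, 0 of the 15 were called in either direction by edgeR, where 0.198%, 0.00902% and 4.74% of all genes were. At an unadjusted p under 0.05 there were 0, 2 and 5 of the 15, against 619, 1064 and 1575 of all 11086 genes. At D25, 3 were higher in mutants and 0 were lower, with a median log2 fold change of 0.68 over the 15 genes, against −0.01 over all genes, of which 5.18% were called higher and 11.3% lower.

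The 3 genes called at D25 were HsIr93a, HsIr75f.2 and HsIr75f.3. HsIr93a, whose Drosophila relative acts with Ir25a in sensing temperature and humidity, had 146.7, 172.5 and 246.3 normalized counts in mutants, against 51.5, 69.2, 55.2 and 54.1 in WT (log2 fold change 1.70, adjusted p = 0.0155). HsIr75f.2 had 271.3, 322.5 and 322.2 in mutants, against 95.01, 89.7, 59.8 and 95.7 in WT (log2 fold change 1.82, adjusted p = 2.13e-04). Ir75 genes encode tuning subunits that act with Ir8a in Drosophila. HsIr75f.3 was higher by 1.73 (adjusted p = 0.00391), and HsIr75f.1, at 334.6, 364.7 and 349.9 in mutants, against 108.9, 102.6, 32.2 and 101.6 in WT, did not pass the threshold (1.98, adjusted p = 0.0577). In each of these genes the mutant libraries at D25 lay above the WT libraries without overlap, as was the case for 14.5% of all genes tested. HsIr68a, HsIr75u.2 and some other Ir genes were also higher without overlap at D25. HsIr75u.1, HsIr75u.2, HsIr308 and HsIr309 were not called, with log2 fold changes of 0.47, 1.00, −0.67 and −0.33.

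**Figure D5:**
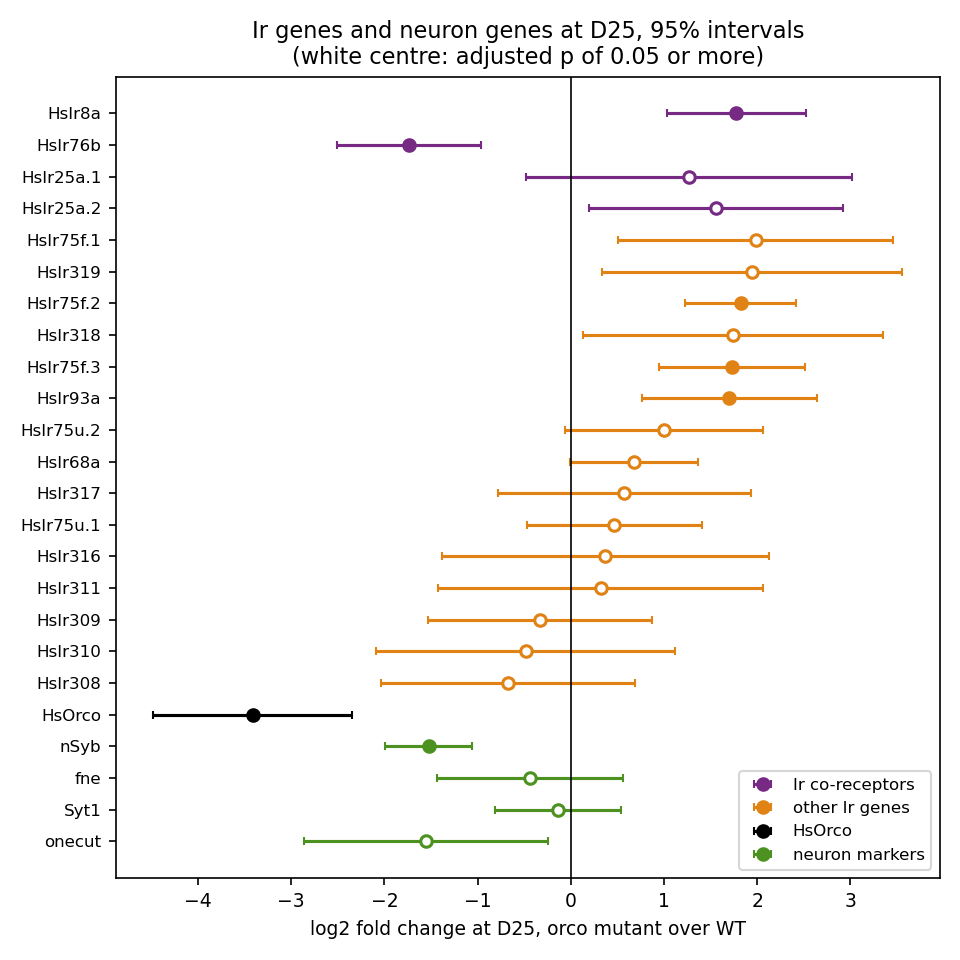
Log2 fold change at D25, orco mutant over WT (x axis), with 95% intervals for the Ir co-receptor genes, the 15 other Ir genes tested, HsOrco and 4 neuron markers. Filled points passed an adjusted p of 0.05 and white centers did not, so that HsIr8a, HsIr75f.2, HsIr75f.3 and HsIr93a lie to the right, and HsIr76b, HsOrco and nSyb to the left.

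Averaged over D20 and D25, 4 of the 15 other Ir genes were higher in mutants (HsIr68a, HsIr75f.2, HsIr75f.3 and HsIr93a) and 0 were lower, with 6.11% of all genes called higher and 11.6% lower. HsIr68a, whose Drosophila relative takes part in sensing moisture, was higher by 0.69 (adjusted p = 0.0444). HsIr76b was the only one of the 19 Ir genes tested that was called lower at any stage or in this average. With age, 9 of the 15 rose from D10 to D25 in mutants and 9 rose in WT, and 0 fell in either genotype, with 17.8% of all genes called higher in mutants and 20.7% in WT. HsIr75f.1, for instance, was at 0 or 1 read in the mutant libraries at D10, and its mean was 350 ± 15.0 (SD, n = 3) normalized counts at D25. HsIr8a, which fell in WT over the same period, was the only Ir gene tested that was called lower at D25 than at D10 in either genotype.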

How the data were processed

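PolyA RNA from pupal antennae of 12 orco mutant and 15 WT libraries was sequenced in bulk. Read counts per gene, deposited for each library, were made by the authors with STAR (version 2.6.1d), and the unstranded counts were taken because the sense strand held 49.9% to 50.7% of reads. Unmapped reads (2.86% to 33.2%), multimapping reads, reads outside genes and ambiguous reads were left out. The deposited table of normalized signal holds these counts divided by size factors from DESeq2 (version 1.34.0), and normalized counts recomputed here differed from it by at most 4.10e-08. Values per library are given in this unit.

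Genes averaging 10 or more counts per library were tested with edgeR (version 4.0.16, R version 4.3.3) using TMM normalization and the quasi-likelihood test in 1 model of 8 groups. P-values are two-sided and adjusted by Benjamini-Hochberg over all 11086 genes per contrast, with a threshold of 0.05. Ratios within a library were compared by exact permutation tests (scipy, version 1.17.1). The fitting code was tested on simulated data. Named genes were the 4 co-receptor genes, other Ir genes past the threshold in a genotype contrast or over 100 normalized counts in a group, HsOrco, cell type markers, and the 5 genes most like each member by Pearson's r of log2 CPM. The members and lists were chosen with earlier results of these data known. Alternatives were other normalizations, the DESeq2 test (version 1.42.0), no filter, batch as a term, the replicate number as a block, only the compared libraries, and each library left out.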

Additional observations from a re-analysis of the deposited data

Results flagged for a closer look

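For the Ir co-receptor genes, no library of the WT groups of 4 stood apart from the others in the 12 groups examined. No difference between genotypes changed with stage past the threshold in the edgeR model of all libraries, while that of HsIr8a did under some of the alternatives given with it. Other genes named above did change in their difference between mutants and WT, by the test of the change itself (edgeR quasi-likelihood test, Benjamini-Hochberg adjustment). For D20 and D25 minus D10 and D15, the log2 difference moved by 1.53 for HsIr75f.2 (adjusted p = 0.00231), −3.51 for HsOrco, −1.88 for nSyb and −2.18 for onecut (adjusted p = 0.0404). For D20 over D15, the change in mutants minus that in WT was 3.52 for HsIr317 (adjusted p = 0.0473), −2.48 for HsOrco and −1.71 for nSyb. The D15 values of HsIr317 rest on few reads, 1 to 7 in the mutant libraries and 7 to 17 in the WT libraries. For D25 over D10, it was 1.62 for HsIr75f.2 (adjusted p = 0.0460), −4.53 for HsOrco and −2.04 for nSyb.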

How the results depend on the processing

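The calls of HsIr76b at D20 and D25 and of HsIr8a at D25 were kept with other normalizations, the DESeq2 test, no filter, batch as a term, the replicate block, only the compared libraries, and without any 1 library. Fits restricted by batch or without WT D25 replicates 1 and 3 were chosen after seeing the data. In batch 3 alone, HsIr76b at D20 was −1.502 (adjusted p = 0.0603), HsIr8a was 1.15 at D25 (adjusted p = 0.188) and 1.16 averaged over D20 and D25 (adjusted p = 0.0815), and the average was −0.39 for HsIr25a.1 and −0.0087 for HsIr25a.2. Without WT D25 replicates 1 and 3, HsIr8a at D25 was 1.37 (adjusted p = 0.0620). Without batch 2, HsIr76b at D15 was −2.20 (adjusted p = 0.0312), HsIr8a at D10 was −0.68 (−0.72 in batch 1 alone), HsIr25a.1 and HsIr25a.2 at D15 were −1.30 and −1.51, HsIr8a in mutants for D15 over D10 was 0.21, and HsIr76b was −0.56 for the change from D10 to D25 between genotypes and −0.17 for late minus early, and in mutants 0.81 for D25 over D10 (adjusted p = 0.171).

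With batch as a term, HsIr8a was −0.20 at D10 and −0.091 at D15, HsIr25a.1 was −1.74 and HsIr25a.2 −0.89 at D15, HsIr76b in mutants for D15 over D10 was 0.21, and in WT HsIr25a.1 for D25 over D10 was −0.21 and HsIr8a for D25 over D20 was −0.059. With library size only, HsIr76b at D10 was −1.77 (adjusted p = 0.0464), −0.56 for the D10 to D25 change between genotypes, −0.25 for late minus early, and in mutants −0.12 for D25 over D10 and −0.23 for D25 over D20. HsIr8a in mutants was −0.24 for D20 over D15, −1.26 for D25 over D10 and −0.055 for D25 over D20, and in WT −0.11 for D25 over D20. For D25 over D10, HsIr25a.1 in WT was −0.57 and HsIr25a.2 in mutants −0.88. Under this scaling the median of all genes was −0.63 at D25, mutant over WT. The DESeq2 test gave −1.78 at D10 and −2.07 at D15 for HsIr76b (adjusted p = 5.02e-04 and 1.31e-06) and 1.10 for HsIr8a at D20 (adjusted p = 0.0459). HsIr76b in mutants for D15 over D10 was 0.017 with DESeq2 size factors and 0.0062 with only the compared libraries, and HsIr8a in WT for D25 over D20 was −0.0075 with no filter and −0.0016 with only the compared libraries.

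Same-numbered mutant and WT libraries correlated at −0.41 to 0.50 in their deviations from group means, and 3 of 12 correlated best with their own number. Since most same-numbered libraries differed in batch, these values cannot tell whether the replicate numbers pair libraries. With the replicate block, HsIr76b at D15 was −2.18 (adjusted p = 0.0306), HsIr8a at D20 was 1.13 (adjusted p = 0.0385), HsIr25a.1 and HsIr25a.2 at D20 were 0.46 and 0.17, HsIr25a.1 in WT for D25 over D10 was −0.39, HsIr8a in WT for D25 over D20 was −0.069, HsIr8a for late minus early was 1.25 (adjusted p = 0.0247) and for the D10 to D25 change between genotypes 1.83 (adjusted p = 0.0234), and 5, 13, 835 and 3604 genes were called at D10, D15, D20 and D25.

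The 22 genes called at D10 became 0 in batch 1 alone, with batch as a term or with only the compared libraries, 1 without batch 2, 10 with DESeq2 size factors or no filter, 41 with library size only and 172 with the DESeq2 test. The 1 gene called at D15 became 15 in batch 3 alone, 94 with the DESeq2 test and 0 with batch as a term or only the compared libraries. The 525 called at D20 became 180 in batch 1 alone and 805 with the DESeq2 test. The 1828 called at D25 became 562 without WT D25 replicates 1 and 3, 605 with only the compared libraries, 931 with batch as a term and 4672 with library size only.

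Leaving out 1 library at a time gave 0 to 159, 0 to 19, 329 to 717 and 707 to 3980 called genes at D10, D15, D20 and D25. HsIr8a ranged over −0.069 to 0.49 at D10, −0.28 to 0.63 at D15 and 0.91 to 1.29 at D20, and in WT −0.13 to 0.060 for D20 over D15 and −0.26 to 0.18 for D25 over D20. HsIr76b ranged over −2.49 to −1.46 at D10 (past the threshold without mutant D10 replicate 1) and −2.22 to −1.83 at D15 (past it without WT D15 replicate 4), −0.095 to 0.42 for late minus early, −0.28 to 0.76 for the D10 to D25 change between genotypes, −0.083 to 0.30 in WT and −0.46 to 0.58 in mutants for D15 over D10. HsIr25a.1 ranged over −0.99 to 0.10, −1.31 to 1.20 and −0.55 to 0.66 at D10, D15 and D20, and −0.56 to 0.57 in WT for D25 over D10. HsIr25a.2 ranged over −1.52 to 0.67, −0.35 to 0.30 and 1.32 to 2.11 at D15, D20 and D25. The ratio of HsIr8a to HsIr25a.1 ranged over −0.95 to 1.33 at D15 and −0.071 to 0.85 at D25, and that to HsIr25a.2 over −0.53 to 1.61 and −0.10 to 0.26. The cause of these changes was not tested. HsIr25a.1 had 4 to 12 reads in 6 libraries.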

Other observations

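For each Ir co-receptor gene, the 5 genes with the most similar log2 CPM over the 27 libraries were listed by Pearson's r, as a description over libraries that share stage and genotype. For HsIr8a these were LOC105187999 (0.84), LOC105191319 (0.80), nompA (0.80), LOC105181201 (0.80) and LOC105187882 (0.80). For HsIr76b they were mRpL53 (0.85), Fstl5 (0.83), Rsph3 (0.82), LOC105183590 (0.80) and LOC105187670 (0.79). For HsIr25a.2 they were Psq (0.87), Drep4 (0.83), LOC105183585 (0.81), LOC105185534 (0.81) and LOC105181104 (0.80), and for HsIr25a.1 LOC105191291 (0.81), jv (0.81), mxt (0.79), MICAL-like (0.78) and Drep4 (0.78). Drep4 was on both lists of the HsIr25a pair. The lists depended on the libraries and the measure. In WT libraries alone, 0 of the 5 genes were shared for HsIr8a, HsIr76b and HsIr25a.1, and 1 for HsIr25a.2, and with Spearman's rho 3, 3, 0 and 4 were shared for HsIr8a, HsIr76b, HsIr25a.1 and HsIr25a.2. None of these 20 entries was an Or, Ir or Gr gene.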
